A study of Homo sapiens with 9 samples.

Results

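The CDK inhibitors are 7 genes whose proteins bind cyclin-dependent kinases (CDKs) and hold back the cell cycle: CDKN1A, CDKN1B, CDKN1C, CDKN2A, CDKN2B, CDKN2C and CDKN2D. They were taken by symbol and Ensembl identifier from a table of mRNA counts, where they are 7 of 19569 genes. The table holds 9 libraries of Jurkat Clone E6-1, an established line of human leukaemic T lymphoblasts. There were 3 libraries of non-activated control cells (0 h), 3 of cells activated for 5 h and 3 of cells activated for 12 h, with anti-CD3 antibody coated on the plate at 10 µg/mL and anti-CD28 antibody in the medium at 5 µg/mL. The study asks how miRNAs act on translation and on mRNA decay while T cells are activated.

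The proteins form 2 families. The INK4 proteins p16 (CDKN2A), p15 (CDKN2B), p18 (CDKN2C) and p19 (CDKN2D) bind CDK4 and CDK6 and keep them from pairing with D-type cyclins. The CIP/KIP proteins p21 (CDKN1A), p27 (CDKN1B) and p57 (CDKN1C) bind assembled complexes of cyclins with CDK2 and other kinases. In T cells p27 is known as a marker of quiescence that is degraded when cells enter the cycle, and p21 is known for halting the cycle after DNA damage and other stress. Jurkat is a transformed line that divides without stimulation and is known to lack the CDKN2A locus, so its 0 h state is not that of a resting T cell.

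Library totals ran from 4222258 to 9359187 counts. All 12 T-cell marker genes had counts, with a sum of 7342 to 9590.2 CPM per library (counts per 1000000, on library sizes scaled with edgeR's TMM factors). The B-cell list summed to 162 to 203 CPM at 0 h, 89.6 to 119 at 5 h and 130.2 to 155 at 12 h, nearly all of it CD79A, while myeloid markers stayed at 2.99 CPM or less and erythroid markers at 0.256 CPM or less. The activation marker CD69 rose from 73.3 ± 7.76 to 865 ± 49.2 CPM at 5 h (mean ± SD, n = 3 here and in all that follows). The libraries are labelled biological replicates, but whether each had its own culture is not said. A p-value here thus reflects library-to-library spread alone, which may be technical. No control was cultured for 5 h or 12 h without antibody, so the effects of activation and of time cannot be told apart, and both times are compared with the same 0 h libraries. In bulk RNA, fewer cells with a transcript and less of it per cell cannot be told apart.

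The CDK inhibitors changed in different directions over the time course. At 5 h, CDKN1A rose about 10.3-fold while CDKN1B, CDKN1C, CDKN2C and CDKN2D fell, CDKN2D to 10.2% of its 0 h level. At 12 h, CDKN1A was still higher than at 0 h, CDKN1B had risen to 1.55 times its 0 h level, CDKN2C and CDKN2D were still lower, and CDKN1C did not pass the test. CDKN2A and CDKN2B had no count in any library.

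Of the 7 genes, 1 was higher and 4 were lower at 5 h, and 2 could not be tested (edgeR quasi-likelihood test, Benjamini-Hochberg adjusted p under 0.05 over all 12036 genes tested). Among all genes tested 24.9% were higher and 24.8% lower, 49.7% in either direction. At 12 h, 2 were higher and 2 lower than at 0 h, against 26.3% and 24.8% of all genes (51.1% in either direction). From 5 h to 12 h, 4 rose and 1 fell, against 18.1% and 18.0% of all genes (36.1% in either direction). Changes of this kind were thus common in the table, and the counts alone do not set these genes apart. The library values of the 5 detected genes did not overlap between the groups compared, except for CDKN1C at 12 h against 0 h. Such separation was found for 58.6% of tested genes at 5 h against 0 h, 56.2% at 12 h against 0 h and 44.9% at 12 h against 5 h.

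**Figure D1:**
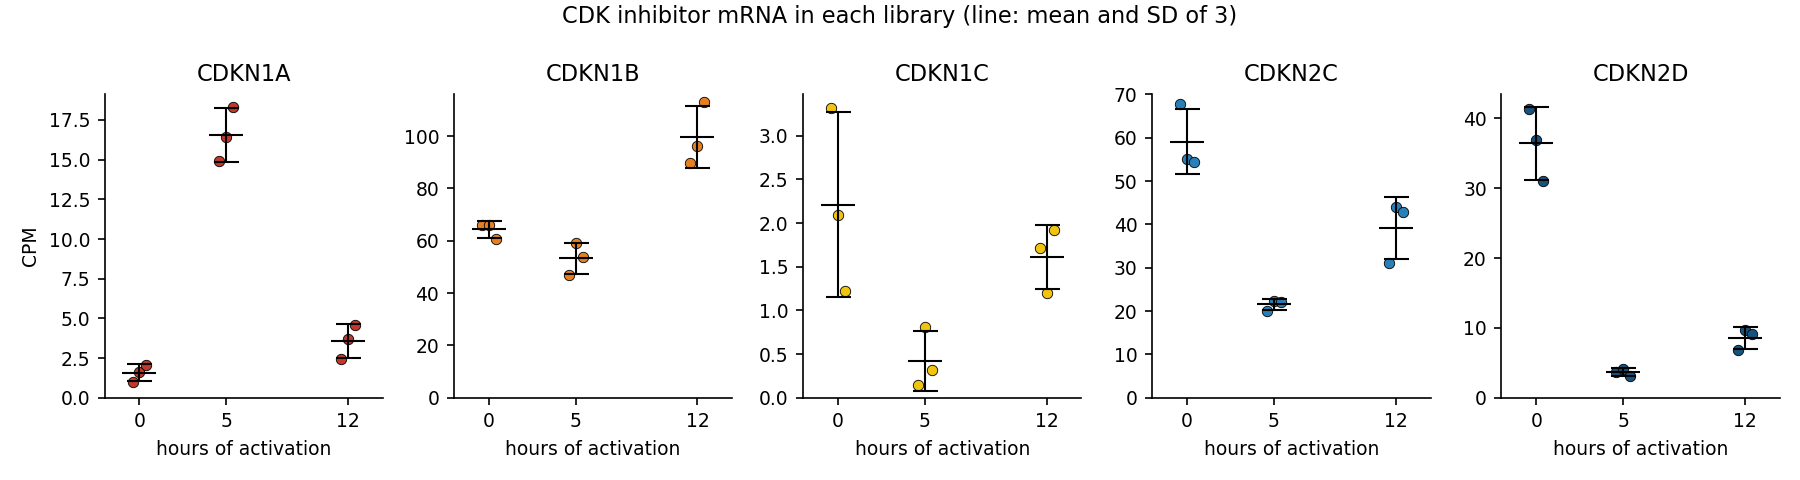
Level of each detected CDK inhibitor in CPM (vertical axis, from 0, a scale per gene) against hours of activation (0, 5 and 12). Points are libraries, and each time has a tick at the mean with a bar of SD. CDKN1A peaks at 5 h at 16.5 CPM, CDKN1B is highest at 12 h, and CDKN1C, CDKN2C and CDKN2D are lowest at 5 h.

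CDKN1A, which encodes p21, lies on chromosome 6 from 36676460 to 36687339 on the plus strand (GRCh38, GENCODE release 29). The non-activated libraries gave 8, 11 and 17 counts of it. Those of 5 h gave 99, 121 and 117 counts and those of 12 h gave 10, 34 and 31. These are 1.02, 1.64 and 2.07 CPM at 0 h, 14.9, 16.4 and 18.3 CPM at 5 h, and 2.44, 3.71 and 4.59 CPM at 12 h. The lowest 5 h library was more than 3 times the highest 12 h library, and the 12 h libraries lay above those of 0 h. The log2 fold change was 3.37 ± 0.26 (SE) at 5 h against 0 h (edgeR adjusted p = 1.02e-09). It was 1.22 ± 0.32 at 12 h against 0 h (edgeR adjusted p = 0.0031), and the fall from 5 h to 12 h was -2.15 ± 0.23 (edgeR adjusted p = 6.66e-07). The annotation places the long non-coding RNA gene DINOL on the opposite strand within CDKN1A. The strand setting of the counting is not given in the sources used here, so reads of such overlapping genes cannot be told apart.

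The 250 bases before the RefSeq start of CDKN1A (chr6:36678464-36678713, plus strand, GRCh38.p14) are shown because this is the member that rose at 5 h. Capitals mark matches to GGGCGG on either strand, the core of Sp1 and KLF sites.
CDKN1A upstream: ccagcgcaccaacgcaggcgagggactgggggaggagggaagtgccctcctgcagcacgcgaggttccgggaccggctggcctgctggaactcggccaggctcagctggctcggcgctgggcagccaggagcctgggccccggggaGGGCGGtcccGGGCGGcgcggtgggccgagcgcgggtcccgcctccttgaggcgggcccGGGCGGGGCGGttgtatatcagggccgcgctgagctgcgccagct
This stretch holds 4 such matches, 2 of them overlapping, and has a GC content of 76.4%, against a median of 58.0% over 35116 promoters of the same length. At least 1 GGGCGG was found in 42.6% of those promoters. Neither of the 2 EGR-type motifs searched, GCGGGGGCG (in 4.72% of promoters) and GCGTGGGCG (in 0.72%), has these letters in the window, and a match or its lack says nothing about binding.

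CDKN1B encodes p27 and lies on chromosome 12 from 12715058 to 12722371 on the plus strand. Its levels were 66.2, 66.2 and 60.6 CPM at 0 h, 47.1, 59.1 and 53.7 CPM at 5 h, and 89.8, 96.3 and 113 CPM at 12 h. Every 5 h library was below every 0 h library by a narrow margin, and every 12 h library was above both. The fall at 5 h was -0.27 ± 0.11 on the log2 scale (edgeR adjusted p = 0.0438), to 82.9% of the 0 h level. That call is borderline: the adjusted p was 0.0613 with DESeq2's Wald test, 0.0975 without 0 h replicate 1, 0.104 without 0 h replicate 2, 0.206 without 5 h replicate 1 and 0.0916 without 5 h replicate 3. The rise at 12 h was 0.63 ± 0.10 (edgeR adjusted p = 4.09e-05), and from 5 h to 12 h it was 0.90 ± 0.11 (edgeR adjusted p = 2.22e-06). CDKN1B thus lay below its 0 h level at 5 h and above it at 12 h. A sense-intronic gene, AC008115.3, lies on the same strand within CDKN1B.

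Because the study concerns miRNAs, the sites of 3 seed families known to target CDK inhibitors are shown. miR-221 and miR-222 are textbook repressors of CDKN1B and CDKN1C, and the miR-17 family of CDKN1A. The mature miRNAs (RefSeq) have their seed, bases 2 to 8, in capitals. miRNA levels were not analysed here.
hsa-miR-221-3p: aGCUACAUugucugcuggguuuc
hsa-miR-222-3p: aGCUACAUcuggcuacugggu
hsa-miR-17-5p: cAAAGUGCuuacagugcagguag
hsa-miR-106b-5p: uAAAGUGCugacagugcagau
hsa-miR-24-3p: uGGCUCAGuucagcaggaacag
miR-221 and miR-222 share the seed GCUACAU, and miR-17 and miR-106b share AAAGUGC. The longest annotated 3′ UTR of CDKN1B (GENCODE release 29) holds 2 matches to the 7-base seed of miR-221 and miR-222 and 1 to that of miR-24, each followed by an A, and the UTR of CDKN1A holds 2 matches to the seed of the miR-17 family without that A. CDKN1C holds 1 match to miR-221 and miR-222, followed by an A, and 1 to miR-24 without it. Among the INK4 genes, CDKN2B holds 1 match to miR-221 and miR-222 followed by an A. Each site is given 5′ to 3′ in the sense of the mRNA. Capitals mark the 7 bases that pair to the seed and, where present, the A after them, which lies opposite base 1 of the miRNA.
CDKN1B miR-221 and miR-222 site 1, chr12:12721217-12721246: aaaagcgttggATGTAGCAttatgcaatta
CDKN1B miR-221 and miR-222 site 2, chr12:12721290-12721319: ttttaccttttATGTAGCAcataaactttg
CDKN1B miR-24 site, chr12:12722269-12722298: aaggttgcataCTGAGCCAagtataatttt
CDKN1C miR-221 and miR-222 site, chr11:2883817-2883846: tgggaccgttcATGTAGCAgcaaccggcgg
CDKN1C miR-24 site, chr11:2883273-2883301: taaaatggttcCTGAGCCgtctgtaccac
CDKN2B miR-221 and miR-222 site, chr9:22004935-22004964: acagctcttaaATGTAGCAatggcactgtt
CDKN1A miR-17 site 1, chr6:36686257-36686285: gtaaacagatgGCACTTTgaaggggcctc
CDKN1A miR-17 site 2, chr6:36686937-36686965: cccagttcattGCACTTTgattagcagcg
The UTRs of CDKN2A, CDKN2C and CDKN2D hold no match to the 3 families. Among 11956 UTRs of tested genes, with a median length of 1653 bases, 9.86% hold ATGTAGC, 27.0% hold GCACTTT and 21.0% hold CTGAGCC. The UTRs searched were 1539 bases long for CDKN1A, 1344 for CDKN1B, 703 for CDKN1C, 591 for CDKN2A, 3084 for CDKN2B, 363 for CDKN2C and 596 for CDKN2D. The 3 UTRs without a match were thus the shortest of the 7. These matches are letters in an annotation, and their use in these cells was not tested.

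CDKN1C, the gene of p57, lies on chromosome 11 from 2883213 to 2885773 on the minus strand and is imprinted in many tissues. It had the fewest counts of the detected members, 90 over the 9 libraries. Its levels were 3.32, 2.09 and 1.22 CPM at 0 h, 0.15, 0.811 and 0.313 CPM at 5 h, and 1.71, 1.20 and 1.92 CPM at 12 h. The 5 h libraries, which held 1, 6 and 2 counts, lay below all others, while the 0 h and 12 h values overlapped. The change at 5 h was -2.28 ± 0.56 on the log2 scale (edgeR adjusted p = 0.00197). Over the alternatives that tested it, the value ran from -3.17 (without 5 h replicate 2) to -1.86 (without 0 h replicate 1). At 12 h against 0 h the value was -0.49 ± 0.44 (edgeR adjusted p = 0.374). From 5 h to 12 h CDKN1C rose by 1.80 ± 0.60 (edgeR adjusted p = 0.025). That call was lost without 5 h replicate 1 (adjusted p = 0.108), 5 h replicate 3 (adjusted p = 0.08) or 12 h replicate 3 (adjusted p = 0.0856), and the value was 2.68 without 5 h replicate 2.

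CDKN2C, the gene of p18, lies on chromosome 1 from 50960745 to 50974633 on the plus strand. Its levels were 67.8, 55.0 and 54.5 CPM at 0 h, 20.1, 22.4 and 22.1 CPM at 5 h, and 31.0, 43.9 and 42.8 CPM at 12 h. The 5 h libraries were the lowest and closest together, and the 12 h libraries lay between the other groups. CDKN2C fell by 1.45 ± 0.13 on the log2 scale at 5 h (edgeR adjusted p = 1.79e-08), to 36.5% of its 0 h level. At 12 h it was -0.57 ± 0.13 against 0 h (edgeR adjusted p = 0.000883), after a rise of 0.89 ± 0.14 from 5 h (edgeR adjusted p = 5.97e-05).

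CDKN2D, the gene of p19, lies on chromosome 19 from 10566462 to 10569059 on the minus strand, and it had the largest fall of the 7 genes. Its levels were 41.4, 36.9 and 31.0 CPM at 0 h, 3.76, 4.19 and 3.13 CPM at 5 h, and 6.83, 9.70 and 9.18 CPM at 12 h. Every 0 h library held more than 3 times the level of any activated library. The log2 fold change was -3.29 ± 0.18 at 5 h (edgeR adjusted p = 5.01e-12) and -2.04 ± 0.16 at 12 h (edgeR adjusted p = 1.65e-09), the latter 24.2% of the 0 h level. From 5 h to 12 h it rose by 1.24 ± 0.22 (edgeR adjusted p = 0.000175), or 2.37-fold.

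The 250 bases before the RefSeq start of CDKN2D (chr19:10568980-10569229, minus strand) and before the start of CDKN2C that lies in a GC-rich stretch (chr1:50968456-50968705, plus strand, the second of 3 RefSeq starts) are shown because these genes fell together at 5 h. Capitals mark GGGCGG and GCGTGGGCG on either strand.
CDKN2D upstream: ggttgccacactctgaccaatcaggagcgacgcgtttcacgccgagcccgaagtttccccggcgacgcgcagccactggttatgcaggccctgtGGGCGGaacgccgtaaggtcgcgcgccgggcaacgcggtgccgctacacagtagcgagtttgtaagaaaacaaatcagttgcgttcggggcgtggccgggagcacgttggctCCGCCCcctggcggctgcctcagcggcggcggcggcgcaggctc
CDKN2C upstream: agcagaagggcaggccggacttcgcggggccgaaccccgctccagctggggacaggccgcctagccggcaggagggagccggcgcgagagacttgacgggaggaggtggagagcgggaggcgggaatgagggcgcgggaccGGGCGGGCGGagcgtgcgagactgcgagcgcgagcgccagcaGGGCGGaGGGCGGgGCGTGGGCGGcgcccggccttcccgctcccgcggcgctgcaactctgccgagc
CDKN2D has 2 matches to GGGCGG. CDKN2C has 5, and 1 match to the EGR-type GCGTGGGCG, which overlaps the last GGGCGG. The other starts of CDKN2C, in less GC-rich sequence (45.6% and 48.8%, against 77.2%), hold 1 E-box CACGTG each, a motif found in 6.34% of promoters. The start with 48.8% GC also holds 1 GGGCGG. That motif was not limited to the genes shown. In windows of the same length CDKN1B has 1 match and CDKN2B has 2. CDKN2A has 1 match at 1 of its 2 starts. The motif was thus found before members that rose, fell or had no count. Neither E2F motif searched (TTTCGCGC in 0.439% and TTTGGCGC in 0.55% of promoters) nor the NFAT core GGAAAA (21.2%) was found before any start of the 6 of 7 members matched in RefSeq's promoter table, all but CDKN1C.

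CDKN2A and CDKN2B, the genes of p16 and p15, lie on chromosome 9 from 21967753 to 21995301 and from 22002903 to 22009363, both on the minus strand. Neither had a count in any of the 9 libraries. A count of 0 allows up to 3 counts, or 0.0475 CPM over all 9 libraries, and this limit covers counting error only. CDKN2B-AS1 and AL359922.1, annotated on the opposite strand, overlap both genes and have no row of counts. Their bearing on the zeros was not tested. Of 34 table genes in a window of 3 Mb on either side, CDKN2A and CDKN2B included, 20 had no count, against 14.7% of all table genes. Of these 20, 15 were interferon genes of a cluster of 16, which are silent in most cells without infection. The others were CDKN2A and CDKN2B themselves, KLHL9, DMRTA1 and IZUMO3, so the share of 20 in 34 rests largely on the interferon cluster. MTAP, 30102 bases from CDKN2A and often lost with it in leukaemias, had 82 counts in all, with means of 1.35 CPM at 0 h, 1.24 at 5 h and 1.40 at 12 h. Farther out, HACD4 had 2003 counts, FOCAD 2530, MLLT3 1084 and RPS6 71691. Loss of the locus, known for this line, and lack of transcription cannot be told apart from mRNA counts.

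**Figure D2:**
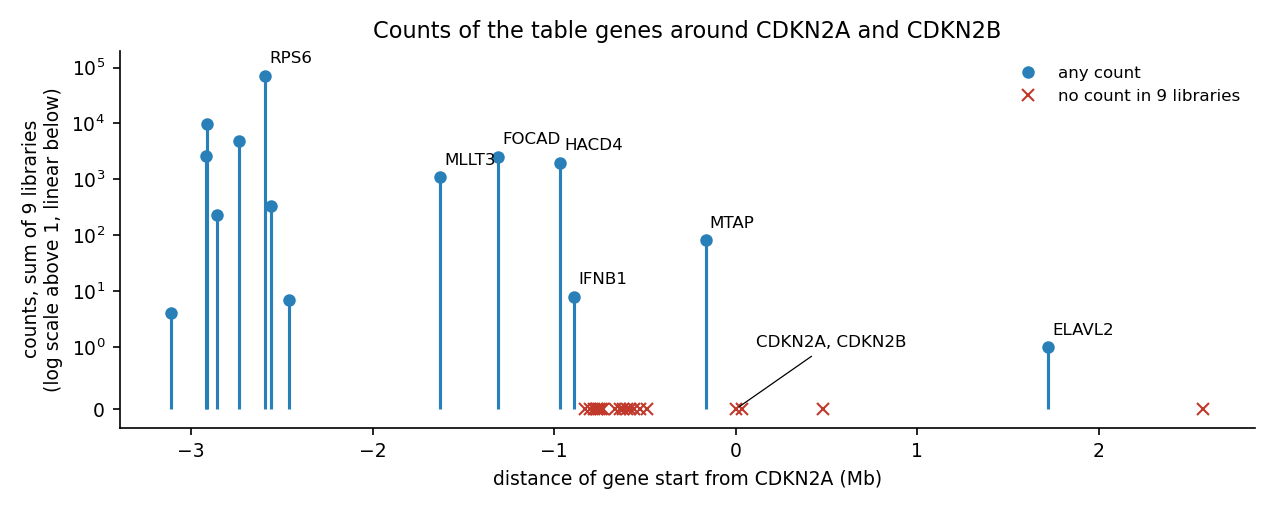
Counts summed over the 9 libraries (vertical axis, logarithmic above 1 and linear below) for each of the 34 table genes within 3 Mb of CDKN2A and CDKN2B, against the distance of the gene's start from that of CDKN2A in Mb. Crosses are the 20 genes with no count, which include both CDK inhibitors; MTAP has 82 counts.

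**Figure D3:**
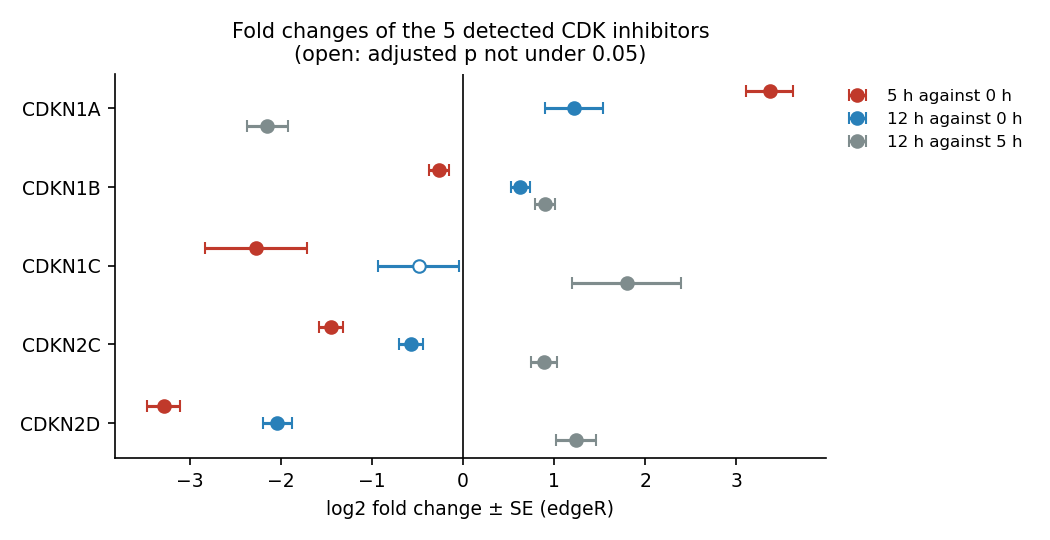
Log2 fold change with SE (edgeR, horizontal axis) of the 5 detected members for 5 h against 0 h, 12 h against 0 h and 12 h against 5 h; open symbols did not pass an adjusted p of 0.05. CDKN1A lies right of 0 and CDKN2C and CDKN2D left of 0 in both comparisons with 0 h, and CDKN1C at 12 h against 0 h is open.

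Compared per kb of exon, the order of the transcripts differed between the times. At 0 h, CDKN2D (24.2 ± 3.48 CPM per kb) and CDKN1B (22.9 ± 1.15) led with overlapping ranges, followed by CDKN2C (17.8 ± 2.26). CDKN1C (0.893 ± 0.427) and CDKN1A (0.518 ± 0.173) were far lower, again with overlapping ranges. At 5 h the order was CDKN1B (19.0 ± 2.14), CDKN2C (6.50 ± 0.372), CDKN1A (5.42 ± 0.567), CDKN2D (2.46 ± 0.353) and CDKN1C (0.171 ± 0.139). At 12 h it was CDKN1B (35.4 ± 4.20), CDKN2C (11.8 ± 2.16), CDKN2D (5.70 ± 1.02), CDKN1A (1.17 ± 0.354) and CDKN1C (0.650 ± 0.150). No neighbours in the 5 h and 12 h orders had overlapping ranges. With the length of the longest transcript in place of all exons the order was kept at each time, but CDKN1B and CDKN2C at 0 h and CDKN2C and CDKN1A at 5 h then overlapped.

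The sum of the 7 genes was 66.4 ± 6.72 CPM per kb at 0 h, 33.5 ± 3.03 at 5 h and 54.8 ± 7.06 at 12 h. The INK4 genes, here CDKN2C and CDKN2D alone, made up 63.3 ± 1.98% of it at 0 h, 26.8 ± 1.37% at 5 h and 31.9 ± 3.13% at 12 h. The INK4 sum itself was 42.1 ± 5.52, 8.95 ± 0.521 and 17.5 ± 3.17 CPM per kb, while the CIP/KIP sum was 24.3 ± 1.36, 24.5 ± 2.58 and 37.3 ± 4.61. CIP/KIP mRNA at 5 h therefore had about the same level as at 0 h with another make-up. CDKN1A supplied 2.16 ± 0.831% of the CIP/KIP sum at 0 h, 22.1 ± 1.89% at 5 h and 3.11 ± 0.626% at 12 h, and CDKN1B 94.2 ± 0.772%, 77.2 ± 1.5% and 95.1 ± 0.479%. Of the sum of all 7 genes, where the INK4 part shrank, CDKN1B supplied 34.6 ± 2.14% at 0 h, 56.5 ± 1.34% at 5 h and 64.8 ± 3.02% at 12 h. These sums are descriptions and were not tested.

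**Figure D4:**
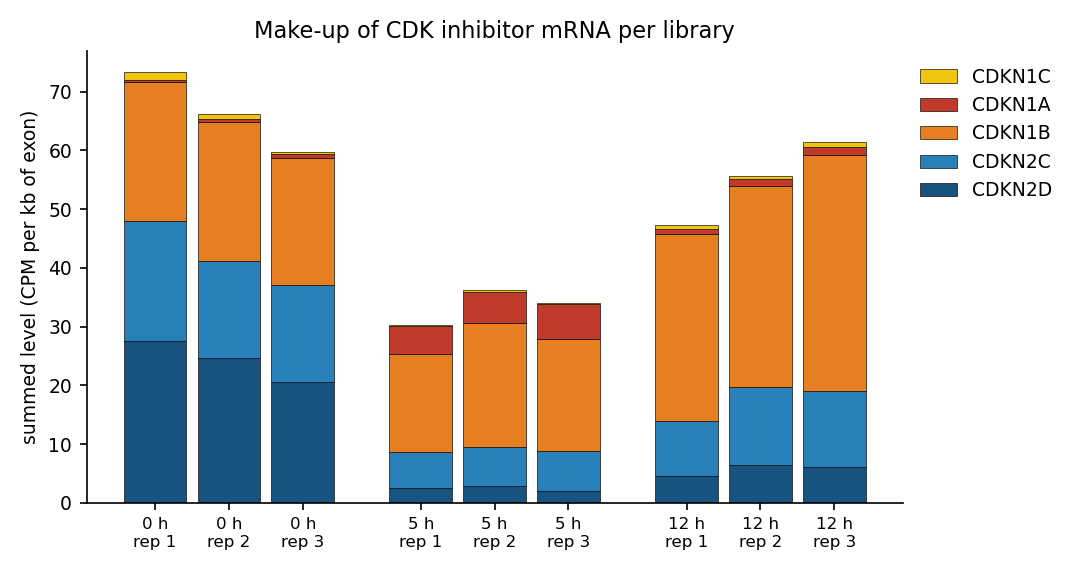
Summed level of the CDK inhibitors in CPM per kb of exon (vertical axis, from 0) in each of the 9 libraries, stacked by gene; CDKN2A and CDKN2B are at 0 and not drawn. The CDKN2C and CDKN2D parts shrink from 42.1 CPM per kb at 0 h to 8.95 at 5 h on average, and the CDKN1A part is widest at 5 h.

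Across the 9 libraries the log2 CPM of CDKN2C and CDKN2D had a Pearson r of 0.95, and CDKN1A had r of -0.93 with CDKN2C and -0.91 with CDKN2D. CDKN1B had r of 0.16 with CDKN2D and 0.41 with CDKN2C. The 9 points form 3 groups in time and share depth and scaling, so these values describe the time course and no more. By the same measure, among genes of at least 5 CPM on average, CCND3 (r = 0.9952), PPARA (0.9934) and RASSF5 (0.9928) were most like CDKN2D. MAP1A (0.9939) and OSTF1 (0.9896) were among the 3 most like CDKN2C. For CDKN1A they were KCNK1 (0.99), WRAP73 (0.9881) and RNFT1 (0.9872), and for CDKN1B they were ZNF516 (0.9842), RBM12B (0.9687) and IDH1 (0.9669). For CDKN1C they were NEXMIF (0.9441), UBN1 (0.9368) and PELI2 (0.9352). With Spearman's rho, 2 of the 3 remained for CDKN1A, 1 each for CDKN1B and CDKN1C, and 0 for CDKN2C and CDKN2D. The number of genes with a rho at or above that of the third place was 9 for CDKN1A, 3 for CDKN1B and 6 for CDKN1C. It was 8 for CDKN2C and 4 for CDKN2D, so the first 3 by rho are unique for CDKN1B only. An r above 0.95 was reached by 179 genes for CDKN2D, 91 for CDKN2C, 79 for CDKN1A, 13 for CDKN1B and 0 for CDKN1C, so many genes share the first 3 patterns. A high r does not mean changes of like size. At 5 h WRAP73 rose 1.37-fold and CDKN1A 10.3-fold, while MAP1A and CDKN2C fell to 36.9% and 36.5% of their 0 h levels.

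Nearby genes did not all move with the members. KRI1, 425 bases from CDKN2D, had 72.3 ± 5.65 CPM at 0 h and fell to 43.5 ± 7.99 at 5 h (log2 -0.73 ± 0.14, edgeR adjusted p = 0.000235), a smaller fall than that of CDKN2D. FAF1, 482 bases from CDKN2C, rose from 108 ± 10.4 CPM at 0 h to 131 ± 6.58 at 5 h, while CDKN2C fell (FAF1 log2 0.27 ± 0.09, edgeR adjusted p = 0.0164). The FAF1 call was lost with library totals (adjusted p = 0.164) and without 0 h replicate 2 (0.122), 5 h replicate 1 (0.0539) or 5 h replicate 3 (0.0657). Beside CDKN1A, RAB44 (10471 bases away) fell from 18.8 ± 2.15 to 12.9 ± 2.35 CPM and SRSF3 (70860 bases away) from 424 ± 34.7 to 287 ± 3.56 CPM. RAB44 was not called without 0 h replicate 3 (adjusted p = 0.0513) or 5 h replicate 1 (adjusted p = 0.0504). The differences between a member and its neighbour were not tested.

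For the lists that follow, the shares over all tested genes are those given above: 24.9% higher and 24.8% lower at 5 h, and 26.3% and 24.8% at 12 h. Of 12 tested CDK and cyclin genes, 2 were higher and 6 lower at 5 h, with a median log2 fold change of -0.22, and 1 was higher and 6 lower at 12 h, with a median of -0.29; the median over all tested genes was within 0.01 of 0 at both times. Without 12 h replicate 2, 2 were higher at 12 h, and limma on the deposited log2 values called 1 higher at 5 h. CDK6 had 1364 ± 136 CPM at 0 h, 1187 ± 93.3 at 5 h (log2 -0.20, not called) and 779 ± 82.8 at 12 h (log2 -0.81), and CDK4 was called at 12 h (log2 -0.52) and not at 5 h. With library totals CDK6 and CDK4 were called lower at 5 h as well (adjusted p = 0.0111 and 0.00791), and CDK6 also when only the 0 h and 5 h groups were fitted (adjusted p = 0.0484) and without 0 h replicate 3 (adjusted p = 0.0433). CDK2, the main CIP/KIP target, fell at both times (log2 -0.36 and -0.43). Among the D-type cyclins, which activate CDK4 and CDK6, CCND3 fell from 423 ± 16.9 to 117 ± 4.08 CPM at 5 h (log2 -1.85 ± 0.09, edgeR adjusted p = 3.69e-13), and CCND2 rose from 2.32 ± 0.647 to 7.06 ± 0.305 CPM (log2 1.59). CCND1 was also called higher at 5 h, at low levels of 0.624 ± 0.542 and 2.61 ± 0.693 CPM (log2 1.98 ± 0.55, edgeR adjusted p = 0.00545). It was not called at 12 h (edgeR adjusted p = 0.246). The E-type cyclins CCNE1 and CCNE2, partners of CDK2, fell at 5 h (log2 -1.28 and -1.48) and were lower at 12 h (log2 -1.66 and -1.83).

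Downstream of these kinases, RB1 and its relatives hold E2F factors until they are phosphorylated. Of 19 genes of the RB family, E2F and DREAM list, 2 were higher and 10 lower at 5 h (median -0.40), against 24.9% and 24.8% of all genes, and 1 was higher and 13 lower at 12 h (median -0.41), against 26.3% and 24.8%. With library totals 1 was higher at 5 h. RB1 fell from 524 ± 68.3 to 341 ± 19.2 CPM at 5 h and to 246 ± 23.3 at 12 h. E2F2 fell most at 5 h, from 119.6 ± 1.47 to 33.3 ± 4.77 CPM (log2 -1.84 ± 0.10, edgeR adjusted p = 5.72e-12), and RBL1, the gene of p107, fell by 1.05 on the log2 scale.

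Of 15 genes that remove or export CDK inhibitor proteins, 1 was higher and 4 lower at 5 h (median -0.10), the latter near the 24.8% of all genes, and 2 were higher and 7 lower at 12 h (median -0.19). Scaling by library totals gave 0 higher and 7 lower at 5 h and 1 higher at 12 h, and 4 were lower at 12 h without 12 h replicate 2. With single libraries left out (0 h replicate 2 or 3, or 5 h replicate 3), 0 were higher at 5 h, and without 0 h replicate 3 or 12 h replicate 3, 1 was higher at 12 h. SKP2, the F-box protein that marks p27 for degradation, fell from 113 ± 4.28 to 71.3 ± 2.47 CPM at 5 h and stood at 71.2 ± 2.92 at 12 h. DTL, which directs p21 to the CUL4 ligase, fell from 192 ± 19.5 to 94.3 ± 3.69 and 99.9 ± 8.24 CPM. Protein levels were not measured in these libraries.

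Transcription factors and chromatin proteins known to act on CDK inhibitor genes were counted in the same way. Of 33 tested, 11 were higher and 9 lower at 5 h (median -0.05), against 24.9% and 24.8% of all genes, and 10 were higher and 8 lower at 12 h (median 0.01), against 26.3% and 24.8%. EGR1, an immediate-early factor, rose from 13.6 ± 1.31 to 1173 ± 25.9 CPM at 5 h (log2 6.43). KLF2, a factor of T-cell quiescence, fell from 40.7 ± 0.147 to 2.49 ± 0.224 CPM (log2 -4.02) and HES1, a Notch-regulated repressor, by 2.82 on the log2 scale. MYC, which represses CDKN1A together with ZBTB17, rose at 5 h (211 ± 10.8 to 276 ± 13.7 CPM) and was lower than at 0 h at 12 h (90.3 ± 7.01 CPM). Their part in the changes of the CDK inhibitors was not tested.

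Of 16 tested genes that set CDK activity in other ways, 3 were higher and 10 lower at 5 h (median -0.55), and again 3 and 10 at 12 h (median -0.39). They include genes that act against CDKs and genes that activate them. PKMYT1, a kinase that inhibits CDK1, fell from 55.5 ± 7.15 to 24.6 ± 5.63 CPM at 5 h, and CDC25A, a phosphatase that activates CDK2, from 102 ± 3.47 to 52.5 ± 1.32 CPM. CDKN3, a phosphatase of CDK2 that belongs to neither family of the 7 genes, fell from 27.4 ± 1.12 to 18.2 ± 1.51 CPM.

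**Figure D5:**
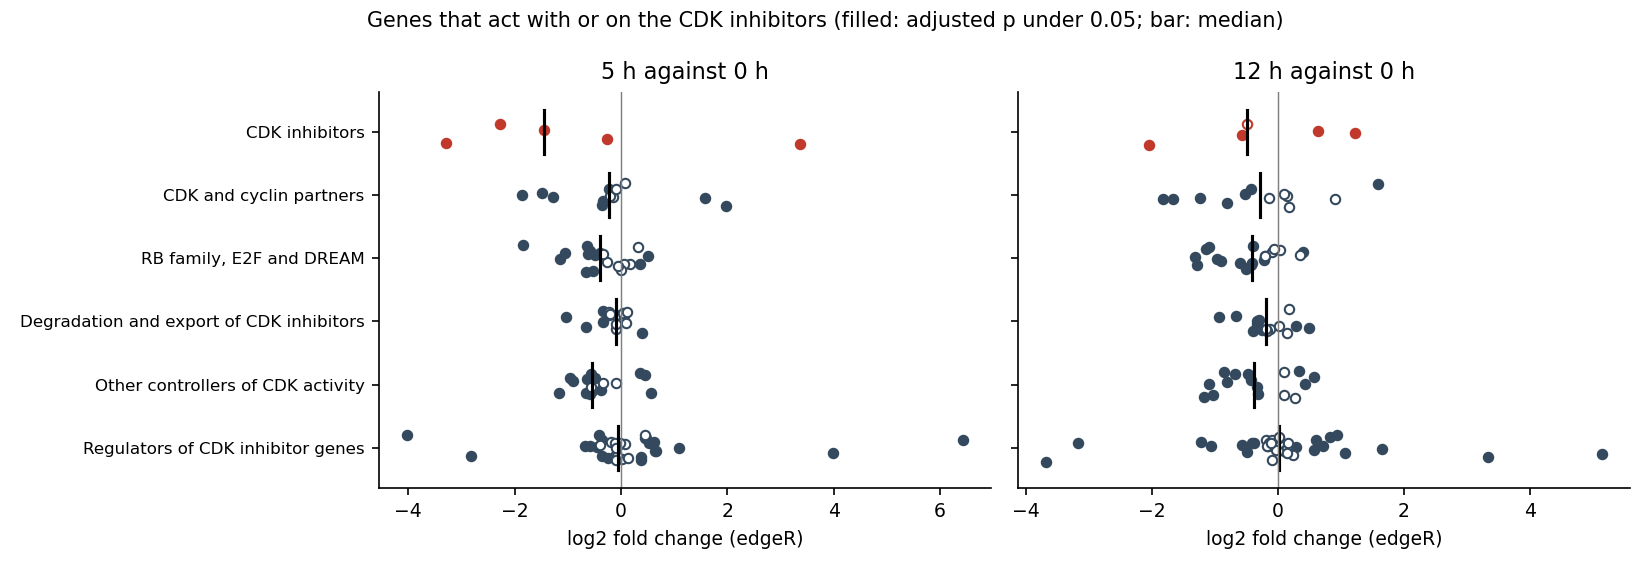
Log2 fold change (edgeR, horizontal axis, a scale per panel) of each tested gene in the CDK inhibitor set and in 5 lists of genes that act with or on it, at 5 h and 12 h against 0 h; filled points passed an adjusted p of 0.05 and bars are medians. CDKN1A at 3.37 and CDKN2D at -3.29 lie at the ends of the CDK inhibitor set at 5 h.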

How the data were processed

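Messenger RNA was measured in 9 libraries. The deposited counts are whole numbers per Ensembl gene, and the deposited log2 values, used only in an alternative, are log2 of the count over 1 factor per library, plus 1, for 12692 genes. The submitters' processing notes name cutadapt, RSEM, DESeq2 and GRCh38.p13 but give neither versions nor what each was used for, so the counts may be rounded estimates. The members and lists were chosen with earlier results of these data known. Of 19569 genes, 19482 are in GENCODE release 29.

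Genes were tested in 1 edgeR 4.0.16 quasi-likelihood fit (R 4.3.3) of all 9 libraries with TMM scaling and filterByExpr, which left 12036 genes; the common biological coefficient of variation was 0.0887. Standard errors are the log2 fold change over the square root of F. Library totals ran from 4222258 to 9359187 counts, so 3 counts are 0.132 CPM over the 0 h group. Replicates differed by a chi-square of 2.87 to 8.92 per degree of freedom, so each was counted. The text names all 7 members, the 3 genes most like each, their neighbours, and the list members with the largest called changes together with their direct partners. Alternatives were DESeq2 size factors or library totals, no count filter, DESeq2 1.42.0, limma 3.58.1 on the deposited log2 values, only the groups compared, a replicate block, and leaving out each library. Some genes and a list are not reported here.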

Additional observations from a re-analysis of the deposited data

Results flagged for a closer look

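The effects at 5 h and 12 h, in which activation and time cannot be told apart, differed for each of the 5 detected CDK inhibitors. Both effects are taken against the same 0 h libraries, so the test of their difference is that of 12 h against 5 h in the same edgeR fit, and all 5 passed it (36.1% of all genes tested did). For CDKN1C, with few counts at 5 h, the call was lost without 5 h replicate 1, 5 h replicate 3 or 12 h replicate 3 (edgeR adjusted p = 0.108, 0.08 and 0.0856). The effect at 12 h minus that at 5 h was -2.15 on the log2 scale for CDKN1A, 0.9 for CDKN1B, 1.8 for CDKN1C, 0.89 for CDKN2C and 1.24 for CDKN2D. For CDKN1A, CDKN2C and CDKN2D the 12 h effect had the direction of the 5 h effect and was smaller. CDKN1B went from -0.27 at 5 h to 0.63 at 12 h.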

How the results depend on the processing

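The counts of CDK inhibitors called higher or lower stayed within 1.5 times under every alternative, a limit that lets 4 become 3. The count lower at 5 h was 3 in some alternatives, such as DESeq2's Wald test. The count higher from 5 h to 12 h was also 3 in some, such as the fit without 12 h replicate 3. CDKN1A, CDKN2C and CDKN2D kept direction and call in all comparisons and alternatives that were run, with CDKN1A at 5 h between 3.12 and 3.63, CDKN2C between -1.57 and -1.35 and CDKN2D between -3.41 and -3.19. The changes for CDKN1B at 5 h and CDKN1C from 5 h to 12 h are given with their results; CDKN1C, with 1 to 26 counts per library, was limited by depth and was not tested when only the 0 h and 5 h or the 5 h and 12 h libraries were fitted. Replicate numbers did not pair the libraries (correlations of same-numbered deviations from -0.143 to 0.163). With the replicate block, CDKN1B at 5 h was -0.28 (edgeR adjusted p = 0.0394) and no CDK inhibitor changed its call. Scaling by library totals moved the median of all genes by -0.12 at 5 h and -0.109 at 12 h. PELI2 at 12 h, not called, was -0.07 to 0.07 when single libraries were left out. Of 480 counts of pathway list genes over the alternatives, 33 moved by over 1.5 times. The cause was not tested.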

Other observations

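The levels of the inhibitors relative to the kinases they bind, both as CPM per kb of exon, moved apart for the families. The INK4 sum was 0.268 ± 0.0220 of the sum of CDK4 and CDK6 at 0 h, 0.0653 ± 0.00717 at 5 h and 0.186 ± 0.0444 at 12 h (SD, n = 3). The 0 h libraries ran from 0.254 to 0.294 and the 12 h libraries from 0.139 to 0.227, so the groups did not overlap. The CIP/KIP sum was 0.600 ± 0.0259 of CDK2 at 0 h, 0.779 ± 0.0747 at 5 h and 1.24 ± 0.0788 at 12 h, also without overlap (0.571 to 0.621, 0.698 to 0.846 and 1.17 to 1.32). CDKN1A stood at 0.0229 ± 0.00865 of CDKN1B at 0 h, 0.287 ± 0.0298 at 5 h and 0.0327 ± 0.00670 at 12 h, and the 0 h and 12 h ranges overlapped. These ratios are of mRNA levels and were not tested.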
